A study of Mus musculus with 20 samples.

Results

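The 7 genes Kit, Aldh1a3, Cd14, Trf, Mfge8, Ltf and Chil1, used as markers of luminal progenitor cells of the mouse mammary gland, were followed across 7 sorted cell groups. They were chosen by gene symbol among the 19937 genes that the platform annotation pairs with at least 1 probe set of a single symbol. Each of the 7 had exactly 1 such probe set, so no choice between probe sets was needed, and all 7 were measured on all 20 arrays.

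The animals carried the K8-creERT2 transgene, in which the keratin 8 promoter drives a Cre recombinase that tamoxifen activates, and the mutant animals also carried a conditional PIK3CA H1047R transgene, an activated form of the catalytic subunit of PI3-kinase. GFP marks the cells that express the mutant kinase. All animals were of a mixed FVB/CD-1 background, received tamoxifen, and were used 4 weeks later; their ages are not given in the sources used here. From K8-creERT2 control animals the sort took GFP-negative cells of 3 gates, each with 3 arrays: basal (CD24 low, Sca1 negative), Sca1-negative luminal and Sca1-positive luminal (both CD24 high). From K8-creERT2/PIK3CA H1047R animals it took GFP-negative basal cells (3 arrays), GFP-positive basal cells (3), GFP-positive Sca1-negative luminal cells (3) and GFP-positive Sca1-positive luminal cells (2). CD45-positive blood cells were gated out in every group. Each sort pooled the glands of 2 to 3 mice at a matched stage of the oestrous cycle, and RNA of 2000 cells was amplified per array, so n counts pools and not animals. The control luminal cells are GFP-negative and the mutant luminal cells GFP-positive, so genotype and GFP status cannot be told apart in the luminal gates. Below, the mutant effect in a gate means GFP-positive mutant minus control cells of that gate. In the basal gate, too, these groups differ in both genotype and GFP status.

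The ductal and alveolar epithelium has an inner luminal layer and an outer basal, contractile layer. Within the luminal layer, hormone-sensing cells carry oestrogen and progesterone receptors, and luminal progenitors, which lack them for the most part, can give rise to the milk-producing alveolar cells. Luminal progenitors are known for the receptor tyrosine kinase Kit, for the retinoic acid-producing enzyme Aldh1a3, and for genes of innate defence and early secretory differentiation.

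From RefSeq's promoter table (GRCm38.p6), the 250 bases before the start of 4 of the 7 genes are printed here because these genes took different paths across the groups described next. Capitals mark CG dinucleotides, and each sequence runs 5′ to 3′ along its gene's strand. Kit is at chr5:75574737-75574986 on the plus strand (the first of 2 listed starts), Mfge8 at chr7:79149061-79149310 on the minus strand, Ltf at chr9:111019042-111019291 on the plus strand and Chil1 at chr1:134181906-134182155 on the plus strand.
Kit: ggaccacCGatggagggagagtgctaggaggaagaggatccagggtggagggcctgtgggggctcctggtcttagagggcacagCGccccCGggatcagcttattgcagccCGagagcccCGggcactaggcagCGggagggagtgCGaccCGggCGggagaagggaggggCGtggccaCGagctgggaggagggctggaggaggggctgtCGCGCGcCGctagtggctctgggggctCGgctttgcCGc
Mfge8: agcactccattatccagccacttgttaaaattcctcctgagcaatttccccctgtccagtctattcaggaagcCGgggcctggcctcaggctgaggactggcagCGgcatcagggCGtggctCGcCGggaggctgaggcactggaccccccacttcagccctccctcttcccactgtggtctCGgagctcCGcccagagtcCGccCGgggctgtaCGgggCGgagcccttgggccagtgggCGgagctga
Ltf: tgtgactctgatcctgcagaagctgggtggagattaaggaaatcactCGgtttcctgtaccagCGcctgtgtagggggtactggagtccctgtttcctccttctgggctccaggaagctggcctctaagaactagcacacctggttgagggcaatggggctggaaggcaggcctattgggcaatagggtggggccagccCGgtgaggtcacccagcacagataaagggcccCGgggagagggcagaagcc
Chil1: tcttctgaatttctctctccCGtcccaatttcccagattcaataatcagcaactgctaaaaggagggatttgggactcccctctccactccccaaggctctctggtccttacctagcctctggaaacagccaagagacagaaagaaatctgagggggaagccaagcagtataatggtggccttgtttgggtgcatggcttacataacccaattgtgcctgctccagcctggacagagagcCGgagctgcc

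The Kit window held 17 CG dinucleotides, more than 76.5% of the 32851 promoter windows of the same length, and the Mfge8 window held 12. The Ltf window held 4 and the Chil1 window 2, both below the median of 6 over all windows. In all, 5 short motifs were searched on both strands: TTCNNNGAA (STAT), TTGCNNAA (C/EBP), GTAAACA (FOXO), GGAAGT (ETS) and TGANTCA (AP-1). They occurred in 7.02%, 9.56%, 3.17%, 19.7% and 6.75% of all windows, in that order. The only match in the 4 windows was TTGGGCAA in Ltf, a C/EBP match on the reverse strand at bases -75 to -68 before the start. Promoters of Aldh1a3, Trf and Cd14 were not analysed here.

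Values are the deposited log2 probe set levels, and a difference of 1 on this scale is a 2-fold change. Array medians lay between 3.66 and 3.80, so a level near 3.7 is close to the middle of an array. Levels of different probe sets were not set against each other, since probe sets differ in brightness. Tests are limma's moderated test on group means, with Benjamini-Hochberg adjustment over all 19937 genes in each comparison and a call at an adjusted p under 0.05. In sorted pools of cells, fewer cells of a type and less RNA per cell cannot be told apart.

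The gates carried their lineage markers. Krt5, a basal keratin, lay between 10.3 and 11.0 on every array of the basal gates and between 4.56 and 7.18 on the luminal arrays. Its highest luminal values, 6.76 and 7.18, were those of mutant Sca1-positive cells, against 4.72 to 5.01 in Sca1-positive control cells. The luminal keratin Krt8 lay between 11.8 and 12.0 on the luminal arrays and between 9.74 and 11.2 on the basal ones. The hormone-sensing receptor gene Pgr was also high in the gate of Sca1-negative luminal control cells, between 7.57 and 7.62, against 8.32 to 8.82 in Sca1-positive control cells. It lay between 4.84 and 5.05 in the Sca1-negative luminal mutant cells. In control animals, the Sca1-negative gate thus also held Pgr transcript. Ptprc, which encodes CD45, stayed between 3.33 and 4.04 on all arrays. Glycam1 read 10.2 and 9.21 on control basal replicates 1 and 3 and between 2.95 and 3.77 on the other 18 arrays, so these control basal pools stood apart.

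**Figure D1:**
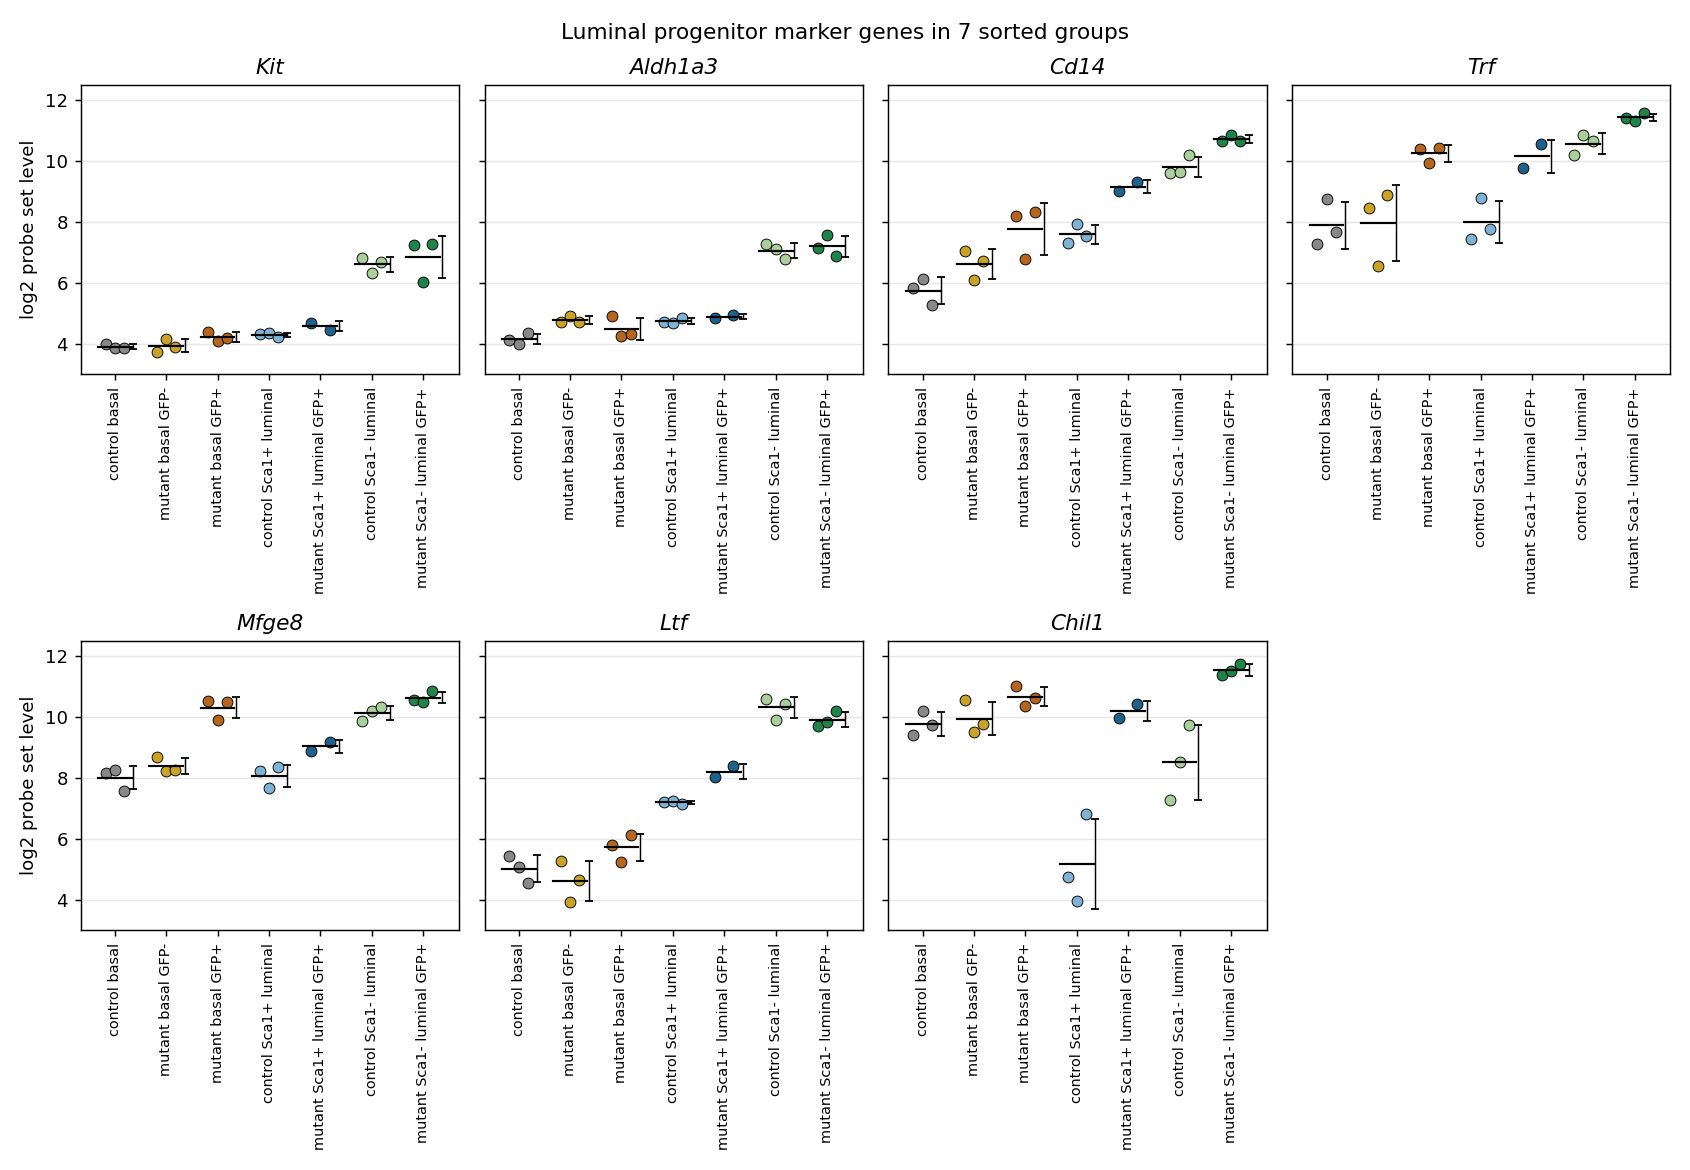
Log2 probe set level (y axis) of each of the 7 genes in the 7 sorted groups (x axis); points are arrays, the horizontal line is the group mean and the bar beside it is ± 1 SD. Kit and Aldh1a3 are high in the Sca1-negative luminal gates only, whereas Mfge8 and Trf also reach 10.3 in mutant GFP-positive basal cells and Chil1 is lowest in control Sca1-positive luminal cells.

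In control animals, the set marked Sca1-negative luminal cells with 1 exception. Of the 7 genes, 6 were called higher there than in control basal cells, where 9.89% of all genes were called in either direction and 5.22% higher, and all 7 were called higher than in control Sca1-positive luminal cells, where 0.762% of all genes were called and 0.577% higher. The median difference over the 7 genes was 2.71 against basal cells and 2.32 against Sca1-positive luminal cells, beside medians of -0.01 and -0.02 over all genes.

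Ltf, which encodes the iron-binding defence protein lactoferrin, showed the widest step between Sca1-negative luminal and basal cells. It read 10.60, 9.91 and 10.42 in the 3 Sca1-negative luminal control pools, 7.21, 7.23 and 7.13 in the Sca1-positive ones and 5.44, 5.06 and 4.55 in the basal ones. The 3 groups did not overlap. The difference was 5.29 ± 0.31 (SE; adjusted p 1.26e-08) from basal cells and 3.12 ± 0.31 (adjusted p 7.59e-05) from Sca1-positive luminal cells.

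Cd14, the co-receptor through which Toll-like receptor 4 senses lipopolysaccharide, followed the same order. It read 9.60, 9.66 and 10.19 in Sca1-negative luminal control cells, 7.32, 7.92 and 7.54 in Sca1-positive ones and 5.84, 6.13 and 5.28 in basal ones. Again no arrays of different groups overlapped, and the difference was 4.06 ± 0.35 from basal cells (adjusted p 9.74e-07) and 2.22 ± 0.35 from Sca1-positive cells (adjusted p 0.00652). Ltf and Cd14 were also the only members called higher in control Sca1-positive luminal than in control basal cells, by 2.17 and 1.84, in a comparison that called 12.3% of all genes (6.32% higher and 5.94% lower).

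Kit and Aldh1a3 had group means of at most 4.58 and 4.90 outside the Sca1-negative luminal gates. Kit read 6.81, 6.34 and 6.69 in Sca1-negative luminal control cells, 4.31, 4.36 and 4.22 in Sca1-positive ones and 4.00, 3.86 and 3.87 in basal ones. Aldh1a3 read 7.29, 7.12 and 6.80, then 4.71, 4.68 and 4.85, then 4.14, 4.00 and 4.35 in the same groups. The difference from basal cells was 2.71 ± 0.24 for Kit (adjusted p 1.43e-06) and 2.90 ± 0.19 for Aldh1a3 (adjusted p 3.51e-08), and from Sca1-positive luminal cells 2.32 for both (adjusted p 0.000134 and 2.04e-05).

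The secreted proteins Trf (transferrin, the iron carrier of plasma and milk) and Mfge8 (a milk fat globule protein that bridges phosphatidylserine and integrins) were bright in every group and brighter in Sca1-negative luminal cells. Trf read 10.19, 10.86 and 10.68 there, 7.43, 8.78 and 7.78 in Sca1-positive cells and 7.27, 8.75 and 7.67 in basal cells. Mfge8 read 9.88, 10.20 and 10.32, then 8.21, 7.66 and 8.34, then 8.17, 8.27 and 7.57. Neither gene separated the other 2 control groups, whose arrays overlapped. The difference from basal cells was 2.68 ± 0.51 for Trf (adjusted p 0.00222) and 2.13 ± 0.23 for Mfge8 (adjusted p 9.32e-06).

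Chil1, a secreted chitinase-like protein, went against its use as a luminal progenitor marker in the basal comparison. It read 9.40, 10.19 and 9.73 in control basal cells, 7.26, 8.52 and 9.74 in Sca1-negative luminal control cells and 4.75, 3.97 and 6.82 in Sca1-positive ones. The basal and Sca1-negative luminal arrays overlapped, and the difference, luminal minus basal, was -1.27 (95% interval -2.58 to 0.04, adjusted p 0.269). Control Sca1-positive luminal cells lay below both: The step up to Sca1-negative luminal cells was 3.33 ± 0.62, with an adjusted p of 0.0184. Against basal cells the Sca1-positive cells differed by -4.6, with an adjusted p of 7.25e-05.

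Of the 13 calls against Sca1-negative luminal control cells, those for Trf and Chil1 between the control luminal gates depended on single arrays. The adjusted p for Trf rose to between 0.0572 and 0.109 without any one of the 3 Sca1-negative arrays or without Sca1-positive replicate 1 or 3. For Chil1 it rose to between 0.0602 and 0.0885 without Sca1-negative replicate 2 or 3 or Sca1-positive replicate 1 or 2, and the Chil1 difference then lay between 2.71 and 3.32. With only these 6 arrays in the fit, the adjusted p was 0.0712 for Trf and 0.286 for Chil1.

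In the Sca1-negative luminal gate, GFP-positive PIK3CA H1047R cells were compared with GFP-negative control cells, which differ from them in both genotype and GFP status. Chil1 was the only member called, where 1.9% of all genes were called and 1.21% higher. It read 11.37, 11.50 and 11.75 in the mutant pools, all above the highest control array at 9.74, and the difference was 3.03 ± 0.62 (adjusted p 0.0158). That adjusted p was 0.0828 without control replicate 1, where the difference fell to 2.41, and between 0.0524 and 0.0679 without control replicate 2 or mutant replicate 2 or 3. With only the arrays of this gate in the fit it was 0.0777.

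The other 6 genes were not called in this gate. Kit read 7.24, 6.04 and 7.28 in the mutant pools, so replicate 2 lay below all 3 control pools and the other 2 lay above them. The Kit difference was 0.24 (95% interval -0.28 to 0.75, adjusted p 0.855), and without mutant replicate 2 it was 0.64 (adjusted p 0.0469). Aldh1a3 read 7.15, 7.57 and 6.87 in the mutant pools and differed by 0.13 (interval -0.27 to 0.53). Ltf, at 9.71, 9.83 and 10.19, was the one member with a lower mean in the mutant, by -0.40 (interval -1.06 to 0.26), and its arrays overlapped the control's.

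Cd14 (10.65, 10.87 and 10.65), Trf (11.42, 11.31 and 11.57) and Mfge8 (10.56, 10.50 and 10.84) lay above every control array of the gate. Their differences were 0.91, 0.86 and 0.50, with adjusted p of 0.297, 0.613 and 0.421. With Chil1, 4 of the 7 genes thus had groups that did not overlap, a pattern that 22.6% of all genes showed in this comparison.

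Other genes did move in this gate. Of 8 measured hormone-sensing genes, 5 were called lower in the mutant cells and none higher, Pgr by -2.65, Prom1 by -2.29 and Foxa1 by -2.11. The level of this list per array was 5.13 to 5.35 in the mutant and 6.59 to 6.90 in the control, and its part in the values of the 7 members was not tested. Of 13 other measured luminal progenitor genes, Elf5 (the transcription factor of alveolar differentiation) was called higher by 2.23, Itgb3 (the integrin beta 3 chain, also called CD61) by 1.35 and Sox10 by 1.29, and none lower.

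In the Sca1-positive luminal gate, all 7 genes had a higher mean in mutant GFP-positive cells than in control cells, and Chil1 was again the only member called, beside 0.226% of all genes (0.181% higher). A list of 12 basal genes averaged 4.73 to 5.06 per array in these mutant cells and 4.32 to 4.51 in the control cells. Of these 12 genes, 1 was called higher and none lower, and their part in the values of the members was not tested. Chil1 read 9.97 and 10.43 in the 2 mutant pools and at most 6.82 in the 3 control pools, a difference of 5.02 ± 0.69 (adjusted p 0.0035). Without mutant replicate 3 the difference was 4.79 and the adjusted p 0.0779, and with only the arrays of this gate in the fit the adjusted p was 0.199.

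Cd14 read 9.02 and 9.31 in the mutant pools, Trf 9.78 and 10.55, Mfge8 8.89 and 9.19, and Ltf 8.02 and 8.38. Each of these lay above the 3 control pools, with differences of 1.57, 2.17, 0.97 and 1.01 and adjusted p of 0.155, 0.187, 0.187 and 0.36. Kit, at 4.70 and 4.47, also lay above its control pools, by 0.28 (interval -0.29 to 0.86). In all, 6 of the 7 genes had groups that did not overlap, beside 28.6% of all genes in this comparison of 2 arrays with 3. Cd14 was called in 3 of 30 alternatives (adjusted p 0.0199 to 0.781) and Trf in 2 of 30 (0.0366 to 0.921).

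Aldh1a3 read 4.85 and 4.95 in the mutant Sca1-positive pools and 4.71, 4.68 and 4.85 in the control ones, a difference of 0.15 (interval -0.29 to 0.60). Of the distance between the control luminal gates, the mutant Sca1-positive mean covered 6.49% for Aldh1a3 and 12.2% for Kit on the log2 scale. It covered 32.4% for Ltf, 47.0% for Mfge8, 70.8% for Cd14, 84.0% for Trf and 151% for Chil1. These shares are descriptions, since they use the same control pools as the differences.

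Between the mutant luminal gates, 5 genes were called lower in Sca1-positive than in Sca1-negative cells, where 4.08% of all genes were called and 1.73% lower. Kit differed by -2.27, Aldh1a3 by -2.30, Ltf by -1.71, Mfge8 by -1.60 and Cd14 by -1.56. Trf (-1.27, adjusted p 0.356) and Chil1 (-1.34, adjusted p 0.475) were not called. The Cd14 call was lost without any one of the 5 arrays (adjusted p 0.073 to 0.248), and the Ltf call without mutant Sca1-positive replicate 1 (-1.53, adjusted p 0.106). The test of whether the mutant effect differed between the luminal gates called none of the 7 genes, beside 0.14% of all genes. By limma, the widest differences of effects in that test were 1.99 for Chil1 (adjusted p 0.879) and 1.41 for Ltf (adjusted p 0.459).

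**Figure D2:**
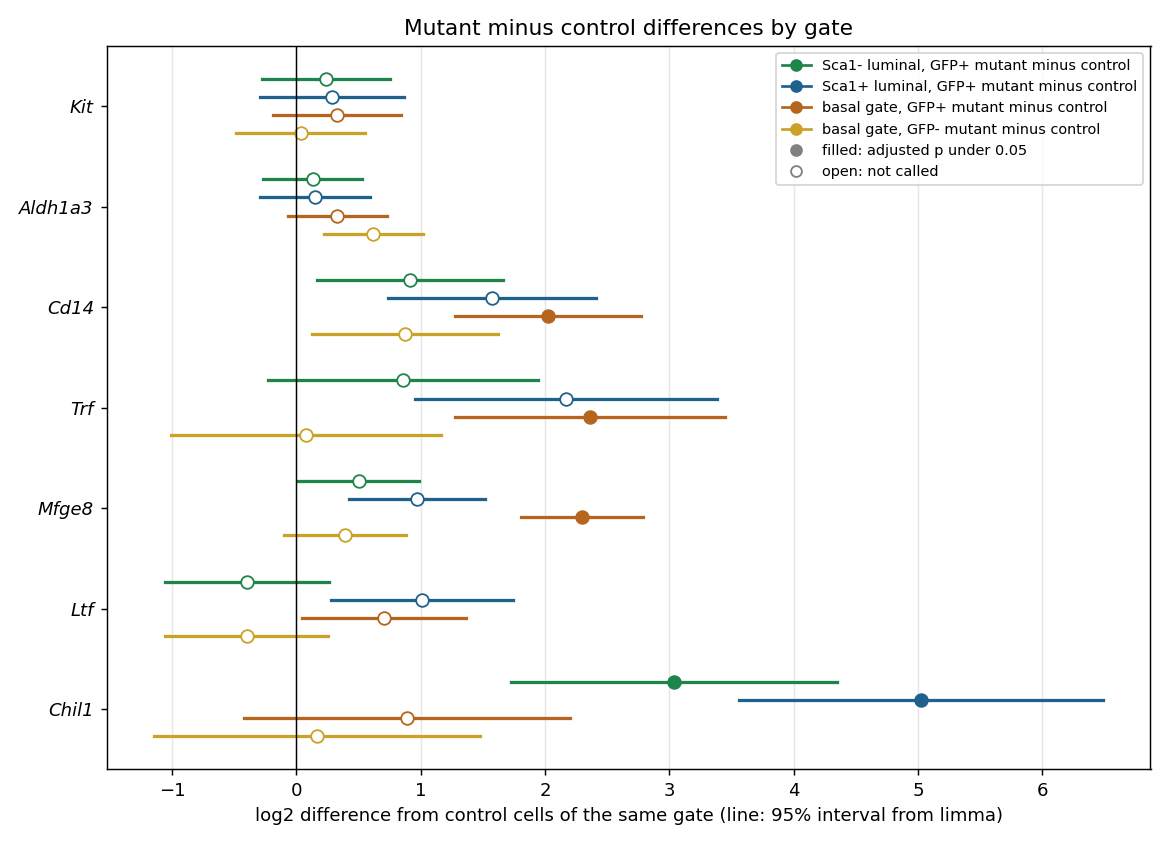
Difference in log2 level between mutant and control cells of the same gate (x axis) for each gene (y axis); lines are 95% intervals from limma, filled points have an adjusted p under 0.05. Chil1 is called in both luminal gates at 3.03 and 5.02, and Cd14, Trf and Mfge8 are called in GFP-positive basal cells at 2.02, 2.36 and 2.30, while no interval for Kit excludes 0.

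In the basal gate, the set split. Mfge8, Trf and Cd14 were called higher in GFP-positive mutant cells than in control basal cells, and Kit, Aldh1a3, Ltf and Chil1 were not, beside 4.23% of all genes called (2.32% higher). Keratin 8 is a keratin of luminal cells, while these GFP-positive cells were sorted in a basal gate. The 12-gene basal list averaged 8.67 to 9.09 per array in them, against 9.47 to 9.55 in control basal cells, and 3 of its genes were called lower and none higher: Lgr5 by -3.66, Oxtr by -1.84 and Myh11 by -0.70. Of 12 genes general to luminal cells, 4 were called higher and none lower: Krt7 by 1.8, Krt19 by 1.48, Cldn7 by 1.46 and Krt18 by 1.01. That luminal list averaged 7.17 to 8.31 in GFP-positive basal cells, 6.65 to 7.45 in control basal cells and 9.63 to 9.73 in control Sca1-negative luminal cells, and its part in the values of the members was not tested.

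Mfge8 read 10.52, 9.90 and 10.48 in GFP-positive basal cells, 8.70, 8.21 and 8.27 in GFP-negative basal cells of the same genotype and 8.17, 8.27 and 7.57 in control basal cells. The GFP-positive pools lay above all the others. The difference was 2.30 ± 0.23 from control basal cells (adjusted p 1.37e-05) and 1.91 ± 0.23 from GFP-negative cells (adjusted p 0.00011).

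Trf read 10.41, 9.93 and 10.43 in GFP-positive basal cells, 8.45, 6.56 and 8.90 in GFP-negative ones and 7.27, 8.75 and 7.67 in control basal cells. The difference was 2.36 ± 0.51 from control (adjusted p 0.0135) and 2.29 ± 0.51 from GFP-negative cells (adjusted p 0.0211). The first adjusted p was between 0.05 and 0.0608 without control replicate 1 or 3 or GFP-positive replicate 3. The second was between 0.0586 and 0.0715 without GFP-negative replicate 2, where the difference fell to 1.58, or GFP-positive replicate 1 or 3. It was 0.234 with only the compared arrays in the fit.

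Cd14 read 8.21, 6.79 and 8.33 in GFP-positive basal cells, so replicate 2 lay well below the others. It read 7.06, 6.10 and 6.71 in GFP-negative basal cells, which overlapped it, and 5.84, 6.13 and 5.28 in control basal cells, which did not. The difference was 2.02 ± 0.35 from control (adjusted p 0.00292) and 1.15 ± 0.35 from GFP-negative cells (adjusted p 0.103), and the latter became 1.64 (adjusted p 0.00417) without GFP-positive replicate 2. That array also had the narrowest spread of values over all probe sets. With only the arrays of GFP-positive and control basal cells in the fit, the adjusted p against control was 0.12.

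Kit read 4.41, 4.09 and 4.21 in GFP-positive basal cells, a difference of 0.32 from control (interval -0.19 to 0.84, adjusted p 0.585). Aldh1a3 read 4.90, 4.25 and 4.32, a difference of 0.33 (interval -0.07 to 0.73, adjusted p 0.43). Ltf, at 5.81, 5.23 and 6.12, differed by 0.70 (interval 0.05 to 1.36, adjusted p 0.268), and Chil1, at 11.00, 10.37 and 10.62, by 0.89 (interval -0.42 to 2.20, adjusted p 0.545). With Mfge8, Trf, Cd14, Kit and Chil1, 5 of the 7 genes had groups that did not overlap, beside 18.6% of all genes. For Kit and Aldh1a3 the upper ends of these intervals lie far below the 2.71 and 2.90 that separated control Sca1-negative luminal from control basal cells.

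Against GFP-negative basal cells, where 3.25% of all genes were called and 2.05% higher, Trf and Mfge8 were the only members called. Ltf was near the threshold, with a difference of 1.11 (adjusted p 0.0686). It passed without GFP-negative replicate 1 (1.43, adjusted p 0.0186) and without GFP-positive replicate 2 (1.35, adjusted p 0.0404). Between GFP-negative and control basal cells no member was called, beside 0.161% of all genes. Aldh1a3 read 4.71, 4.92 and 4.72 in GFP-negative basal cells, above the control basal arrays at 4.14, 4.00 and 4.35. It was the only 1 of the 7 members whose arrays did not overlap there. The share of all genes with that pattern is not given here. By limma, the widest differences there were 0.87 for Cd14 (adjusted p 0.429) and 0.62 for Aldh1a3 (adjusted p 0.254).

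Set directly beside control Sca1-negative luminal cells, GFP-positive basal cells were called lower for Ltf by -4.59, for Aldh1a3 by -2.58, for Kit by -2.38 and for Cd14 by -2.04, and higher for Chil1 by 2.16 (adjusted p 0.0362), beside 9.81% of all genes called (4.94% lower and 4.87% higher). Mfge8 differed by 0.17 (interval -0.32 to 0.66) and Trf by -0.32 (interval -1.40 to 0.77), and the arrays of both overlapped those of the luminal cells. The Chil1 call was lost without control luminal replicate 1 (1.53, adjusted p 0.179) or 2 and without any GFP-positive basal replicate (adjusted p 0.0664 to 0.113), and with only the compared arrays in the fit (adjusted p 0.09). Of the log2 distance from control basal to control Sca1-negative luminal cells, GFP-positive basal means lay 108% of the way for Mfge8, 88.1% for Trf, 49.8% for Cd14, 13.3% for Ltf, 12% for Kit and 11.3% for Aldh1a3.

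**Figure D3:**
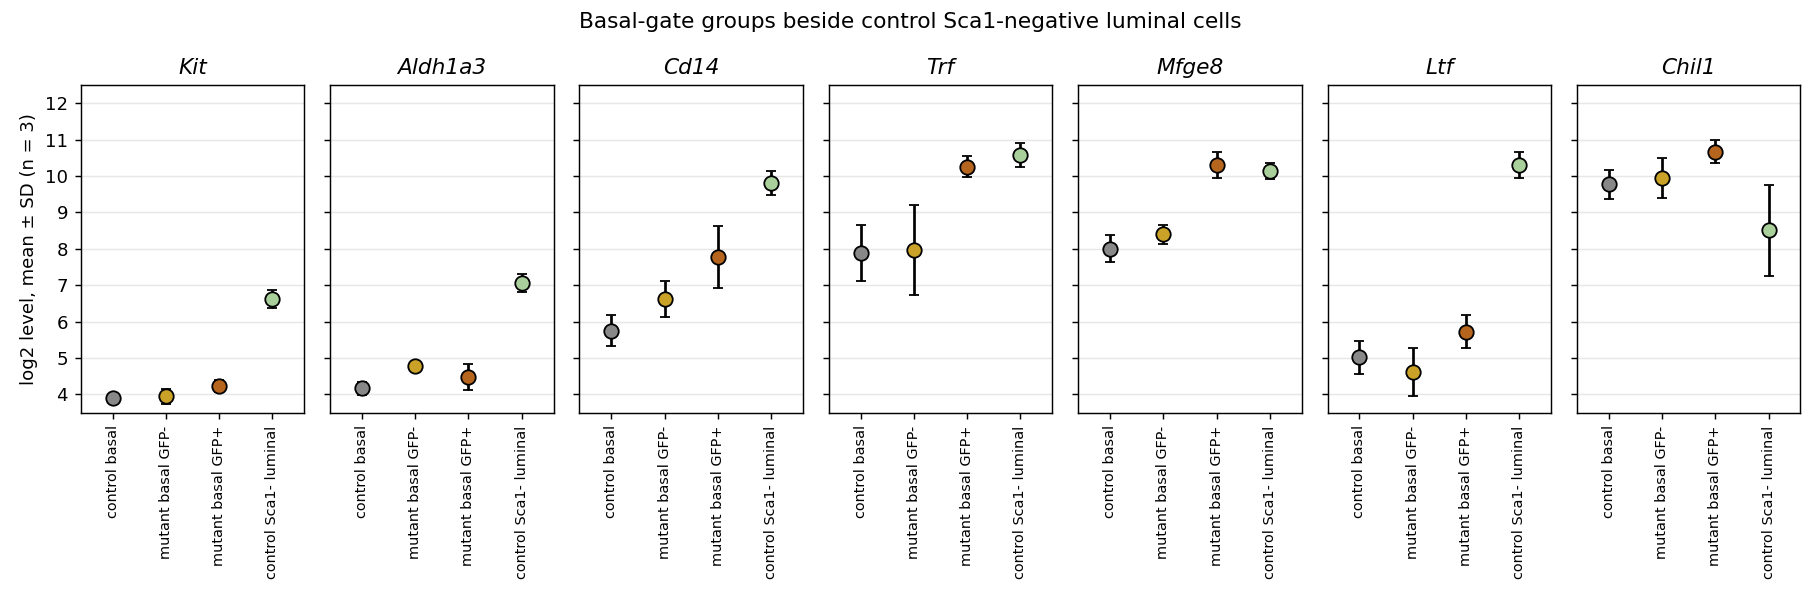
Mean log2 level ± SD (y axis, n = 3 arrays) of each gene in control basal, mutant GFP-negative basal, mutant GFP-positive basal and control Sca1-negative luminal cells (x axis). Mfge8 and Trf in GFP-positive basal cells (10.30 and 10.26) lie beside the luminal means (10.13 and 10.58), while Kit, Aldh1a3 and Ltf stay near the basal means.

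The mutant effect on Mfge8 (GFP-positive mutant minus control cells) was larger in the basal gate than in the Sca1-negative luminal gate. The effects differed by 1.79 ± 0.32 (interval 1.11 to 2.48, adjusted p 0.00824). Mfge8 was the only member called in this test, which called 1.55% of all genes and 0.938% in this direction. Between GFP-negative mutant and control basal cells Mfge8 differed by 0.39 (adjusted p 0.632). Against the Sca1-positive luminal gate the Mfge8 effect in the basal gate differed by 1.33 (interval 0.60 to 2.06, adjusted p 0.092). For Chil1 the effect in the basal gate was smaller by -2.15 than in the Sca1-negative luminal gate (adjusted p 0.364) and by -4.14 than in the Sca1-positive luminal gate (adjusted p 0.0426), in a test that called 1.09% of all genes and 0.512% in this direction. The last test was chosen after the levels had been seen, and its adjusted p passed the threshold in only 11 of 30 alternatives, lying between 0.00366 and 0.2.

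Between mutant GFP-positive cells of the basal and the Sca1-negative luminal gates, 4 members were called higher in the luminal cells, beside 9.59% of all genes called and 5.16% higher. They were Ltf (4.19), Cd14 (2.95), Aldh1a3 (2.71) and Kit (2.62). Trf (1.18, adjusted p 0.206), Chil1 (0.88, adjusted p 0.522) and Mfge8 (0.33, interval -0.15 to 0.82) were not called.

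Ranked by group mean, 6 of the 7 genes were highest in mutant Sca1-negative luminal cells and Ltf was highest in control Sca1-negative luminal cells. In turn, 5 were lowest in control basal cells, Ltf was lowest in GFP-negative basal cells and Chil1 in control Sca1-positive luminal cells. Of the 42 pairs of groups that are neighbours in these orders, 6 were called. They were the step from control Sca1-negative to mutant Sca1-positive luminal cells for Kit (2.03) and Aldh1a3 (2.17), where 0.958% of all genes were called, from mutant Sca1-positive luminal to GFP-positive basal cells for Cd14 (1.39), where 10.7% were called, and from control Sca1-negative to control Sca1-positive luminal cells for Chil1 (3.33). For Ltf they were the steps from mutant Sca1-negative to mutant Sca1-positive luminal cells (1.71) and from control Sca1-positive luminal to GFP-positive basal cells (1.47), the latter in a comparison that called 11.9% of all genes. Leaving out single arrays gave between 4 and 7 called pairs. No neighbouring pair was called for Trf or Mfge8, although arrays did not overlap in some of them. The widest of these steps were from mutant to control Sca1-positive luminal cells for Trf (2.17, interval 0.95 to 3.38, adjusted p 0.187) and from control Sca1-negative to mutant Sca1-positive luminal cells for Mfge8 (1.09, adjusted p 0.0581, called in 7 of 30 alternatives). From the lowest to the highest group mean, Mfge8 covered 2.63, Kit 2.94, Aldh1a3 3.03, Trf 3.54, Cd14 4.97, Ltf 5.69 and Chil1 6.36.

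Likeness between genes was measured as the mean absolute difference between their centred means over the 7 groups, as a description. Within the set, Kit and Aldh1a3 were the closest pair, at 0.14, followed by Trf and Mfge8 at 0.47, and Ltf and Chil1 were the farthest apart, at 2.48. Over all genes, Kit was closest to S100g (0.14), Cd14 to Muc1 (0.33), Trf to Lrg1 (0.30), Mfge8 to Xdh (0.33), Ltf to Cd14 (0.64) and Chil1 to Ldhb (0.74). For Chil1 the median over all genes was 1.48.

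The partners of the members are described by role. Kitl, the ligand of Kit, was called lower in GFP-positive basal than in control basal cells by -1.06 (adjusted p 0.00429) and in control Sca1-negative luminal than in control basal cells by -1.07. For Aldh1a3, 11 genes of retinoid handling were measured. The retinaldehyde reductase Dhrs3 and the retinoic acid hydroxylase Cyp26a1 were called higher in GFP-positive than in control basal cells, by 1.63 and 1.84, and none lower; Crabp2, a retinoic acid-binding protein, was called higher in mutant Sca1-negative luminal cells by 1.62.

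Of 5 partners of Cd14, Tlr4 and Ly96, which form the lipopolysaccharide receptor, were called higher in control Sca1-negative luminal than in control basal cells, by 2.05 and 2.28. Tlr2 was called higher in GFP-positive basal cells than in control (2.18) and GFP-negative basal cells (2.90), and in mutant than in control Sca1-negative luminal cells (1.37). Of the 8 genes of iron uptake and storage listed with Trf and Ltf, Slc11a2, an iron transporter, was called higher in mutant Sca1-negative luminal cells by 0.66 and in GFP-positive than in GFP-negative basal cells by 0.61. Lrp1, the endocytic receptor that also takes up lactoferrin, was called lower in control Sca1-negative luminal than in control basal cells by -2.60 and higher in GFP-positive basal than in control Sca1-negative luminal cells by 3.12. Of 6 partners of Mfge8, the integrin chain Itgav was called higher in GFP-positive than in control basal cells by 0.72, and Itgb3 in mutant Sca1-negative luminal cells. None of the 5 partners of Chil1 was called in any of the 8 comparisons between groups.

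Of the 13 other luminal progenitor genes, 6 were called higher and 1 lower (Sox10) in control Sca1-negative luminal than in control basal cells. All 13 had a higher mean in control Sca1-negative than in control Sca1-positive luminal cells, but only 2 were called, beside 0.762% of all genes. In GFP-positive basal cells 5 of the 13 were called higher than in control basal cells and none lower: Ehf by 3.62, Plet1 by 2.89, Wfdc18 by 2.85, Elf5 by 1.84 and Cd55 by 1.62. Their means in control Sca1-negative and Sca1-positive luminal cells were 9.41 and 8.43 (Ehf), 11.8 and 11.5 (Plet1), 11.6 and 9.98 (Wfdc18), 6.48 and 4.79 (Elf5), and 6.46 and 5.70 (Cd55). In mutant Sca1-positive luminal cells Lcn2, a siderophore-binding defence protein, was the only one called, by 1.82. The median over these 13 genes was 0.81 in GFP-positive basal cells, 0.46 in the Sca1-negative and 0.36 in the Sca1-positive luminal gate, beside medians between -0.05 and -0.03 over all genes.

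**Figure D4:**
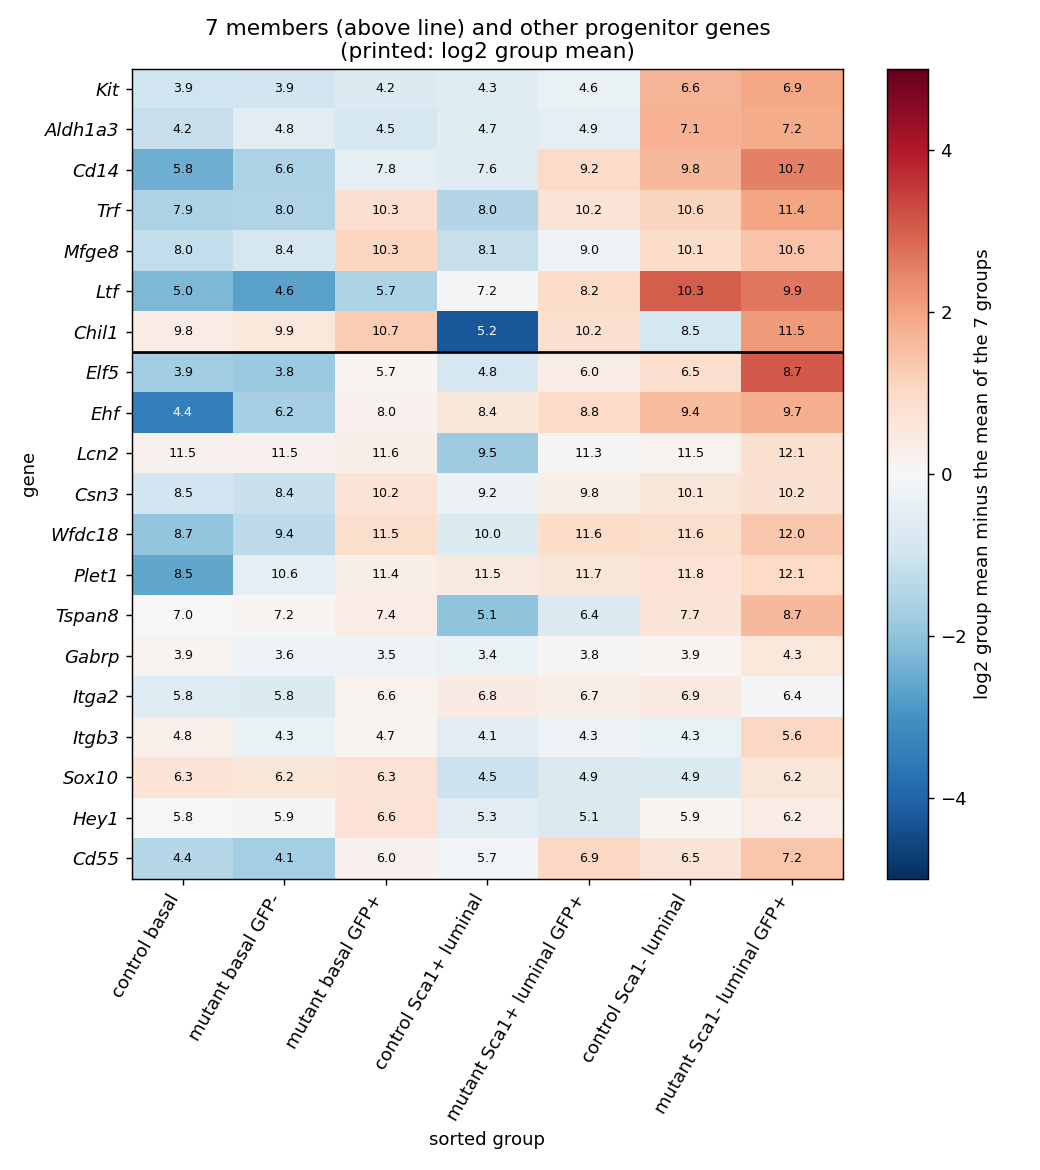
Group means of the 7 members (above the line) and 13 other luminal progenitor genes (rows) in the 7 groups (columns); colour is the log2 group mean minus the gene's mean over the 7 groups, and the printed number is the log2 group mean. Mfge8, Trf, Wfdc18 and Cd55 are above their own mean in GFP-positive basal cells, where Kit, Aldh1a3 and Ltf are below theirs.

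Of 9 measured milk genes, 4 were called higher in GFP-positive than in control basal cells: Csn2 by 5.18, Csn1s1 by 4.61, Wap by 2.98 and Xdh by 2.12. Glycam1 was called lower by -4.28 there and rests on the 2 control basal arrays given above. Wap was called higher in mutant than in control cells of both luminal gates, by 4.85 (Sca1-negative) and 4.26 (Sca1-positive), and Xdh in the Sca1-negative gate by 1.56. No other milk gene was called in these mutant luminal comparisons.

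Since Cd14, Ltf, Trf and Kit are also genes of blood cells or plasma, markers of other cells are given beside them. The 10 macrophage and monocyte genes averaged between 3.43 and 3.85 on every array, none was called in any of the 8 comparisons, and Csf1r and Lyz2 had group means between 2.93 and 3.84. Cd68, the brightest of them, had group means between 5.14 and 6.92 and differed between mutant and control cells by 1.27 in the Sca1-negative (adjusted p 0.128) and 0.80 in the Sca1-positive luminal gate (adjusted p 0.614). The 8 mast cell genes, which mark the Kit-bearing blood cell of tissues, averaged between 3.18 and 3.38 with none above the gene median in any group. Of 10 neutrophil genes, S100a8 was called higher in GFP-positive than in control basal cells by 4.74 and in mutant than in control Sca1-negative luminal cells by 3.61. Camp, an antimicrobial peptide gene, was also called higher in GFP-positive than in control basal cells, by 0.50. S100a9, the partner of S100a8, stayed between 3.47 and 3.72 in group means, and Ly6g, Elane and Mpo between 2.80 and 3.72. Of 6 fibroblast genes, Dcn and Col1a2 were called higher in GFP-positive than in control basal cells, by 3.15 and 0.88, and than in GFP-negative basal cells, by 2.54 and 0.92. They were the only 2 of the 6 with a positive difference in each comparison, and the list median was -0.03 in both. In control Sca1-negative luminal cells 1 gene of this list was called higher than in control basal cells, by 3.05. Dcn was called lower in mutant than in control Sca1-negative luminal cells by -2.83. The endothelial list averaged 3.48 to 4.02 in control basal cells and 3.30 to 3.41 in GFP-positive basal cells, where Cdh5 was called lower by -0.99. Cdh5 read 4.01, 3.89 and 5.19 in control basal replicates 1, 2 and 3, and between 3.30 and 3.52 in GFP-positive basal cells. The part of the genes of these lists in the results of the basal gate was not tested.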

How the data were processed

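Log2 expression values of 20 Affymetrix mouse gene arrays were used as the authors deposited them. The package affy is named, without a version, in the submitters' processing notes; the background correction, normalization, build and annotation version are not given in the sources used here, and no array was normalized again. Of 34760 probe sets, 21640 had a single gene symbol, 1321 several and 11799 none; a gene with several probe sets was represented by the one of highest mean, which left 19937 genes. No genes were filtered. A model of 7 group means was fitted to all 20 arrays with limma 3.58.1 in R 4.3.3, after a check on simulated data, and p-values were adjusted over all genes by the Benjamini-Hochberg method. The precision is limited by the number of arrays, 3 per group and 2 in 1 group.

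The 7 members, the gene lists, the motifs and the comparisons were chosen with earlier results of these data known. The genes named beside the members are those of the fixed lists called at an adjusted p under 0.05, the genes most like each member, and lineage markers of the gates; Glycam1 per array, the test of the mutant effect in basal against Sca1-positive luminal cells, and the comparisons between the mutant luminal gates, of mutant Sca1-negative luminal with GFP-positive basal cells, of control Sca1-positive luminal with control basal cells and of mutant Sca1-positive with control Sca1-negative luminal cells were added after values were seen. Some genes of the lists, Lyn, Lalba, Prlr, Ly6a, Areg and Cfd among them, were not used here. Arrays with the same replicate number were compared, but nothing states that the numbers mark the 3 sortings, so the main model has no block. Alternatives were array weights, fits to the compared arrays alone, a fixed and a random replicate block, quantile normalization, median centring and a filter on dim genes. Others were a trended robust fit, the mean of a gene's probe sets, and leaving out each array. The last, chosen after seeing the data, left out the 2 arrays with the narrowest spread of values (control Sca1-positive luminal replicate 2 and GFP-positive basal replicate 2). Promoter sequences are RefSeq's.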

Additional observations from a re-analysis of the deposited data

Results flagged for a closer look

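The mutant effect on Mfge8 differed between gates by the test of the difference itself: it was 1.79 larger (log2) in the basal gate than in the Sca1-negative luminal gate, with an adjusted p of 0.00824 by limma, and it stayed called under all 30 alternatives (1.58 to 2.00). The matching difference from the Sca1-positive luminal gate was 1.33 and was not called (adjusted p 0.092), nor was the one between the luminal gates, 0.47 (95% interval -0.265 to 1.196). The mutant effect on Chil1 also differed by such a test, being smaller in the basal gate than in the Sca1-positive luminal gate by a difference of -4.14 (adjusted p 0.0426 by limma). That test was chosen after the levels had been seen, and the call was lost in 19 of 30 alternatives. In control basal cells Chil1 already read between 9.40 and 10.19.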

How the results depend on the processing

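Over 15 comparisons of the 7 genes (105 results), 42 were called, 30 of these under every alternative, and none of the 42 changed sign anywhere. The share of all genes called in these comparisons ran from 0.14% to 12.3%. The comparisons also share groups, so the 105 results are not independent. With only the compared arrays in the fit, where fewer arrays enter the variance, the count of members called was 0 for mutant against control Sca1-negative luminal cells, 0 for Sca1-positive luminal cells and 1 for GFP-positive against GFP-negative basal cells; Trf and Chil1 between the control luminal gates, Cd14 between GFP-positive and control basal cells and Chil1 between GFP-positive basal and control Sca1-negative luminal cells were also lost. For Sca1-positive luminal cells the count was 3 with array weights and 2 without the 2 arrays of narrow spread, an alternative chosen after seeing the data. The cause was not tested. The shares of all genes called under the alternatives are not given here. A change in a member count thus cannot be told apart from a change in calls over all genes. Leaving out single arrays gave counts of 0 to 1 (mutant Sca1-negative luminal), 0 to 2 (mutant Sca1-positive luminal), 1 to 4 (GFP-positive against GFP-negative basal), 2 to 3 (GFP-positive against control basal), 5 to 7 (between control luminal gates) and 4 to 5 (GFP-positive basal against control Sca1-negative luminal).

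Same-numbered arrays correlated between -0.054 and 0.222 in their deviations from group means (median 0.019, 5 of 57 pairs over 0.1). Averaged by replicate number over the arrays of other groups, the correlation was highest with the own number for 15 of 20 arrays. That is a hint from the data and not from the design. With a replicate block, fixed or random, 6 members were called between control Sca1-negative luminal and basal cells and 7 between control luminal gates. Both blocks gave 1 in each mutant luminal gate and 3 for GFP-positive against control basal cells. With the fixed block, Ltf was added for GFP-positive against GFP-negative basal cells (adjusted p 0.0487). That block also lost Chil1 in the test between the basal and Sca1-positive luminal effects (adjusted p 0.0502). The random block changed neither call, with 2 members called for GFP-positive against GFP-negative basal cells.

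Apart from leaving out single arrays, the alternatives gave 6 changes of sign, all in differences that were not called and lie near 0. In the test between luminal effects they were Kit (-0.036 with the fixed replicate block) and Aldh1a3 (-0.016 without the narrow arrays). Trf changed sign between control Sca1-positive luminal and basal cells (-0.0901 with array weights and -0.29 without the narrow arrays). It also did so in the test between basal and Sca1-positive effects (-0.033 without the narrow arrays). Mfge8 changed sign between control Sca1-positive luminal and basal cells (-0.0018 with quantile normalization). Leaving out single arrays changed the sign of 13 differences that were not called. Between GFP-negative and control basal cells their ranges were -0.077 to 0.132 for Kit, -0.389 to 0.781 for Trf and -0.141 to 0.387 for Chil1. Between control Sca1-positive luminal and basal cells they were -0.29 to 0.528 for Trf and -0.146 to 0.274 for Mfge8, and for Aldh1a3 in the mutant Sca1-negative luminal gate -0.055 to 0.297. In the test between luminal effects they were -0.36 to 0.259 for Kit and -0.146 to 0.206 for Aldh1a3. In the test of the basal against the Sca1-negative luminal effect they were -0.319 to 0.300 for Kit and -0.011 to 0.382 for Aldh1a3, and against the Sca1-positive luminal effect -0.073 to 0.156 for Kit, -0.029 to 0.297 for Aldh1a3 and -0.196 to 0.623 for Trf. With 2 or 3 arrays per group, differences of about 0.5 in these genes are not resolved, and for some members much larger ones were not called either. In the Sca1-positive luminal gate these were 2.17 for Trf (adjusted p 0.187 by limma) and 1.57 for Cd14 (adjusted p 0.155).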
